A study of Mus musculus with 8 samples.

Results

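The proteasome subunits, activators and assembly chaperones were taken as every gene on the array whose symbol begins with Psma, Psmb, Psmc, Psmd, Psme, Psmf or Psmg. The prefixes gave 45 of the 16593 genes named on the array, by 67 of 23978 named probes. Each gene was read from its probe with the highest mean over the 4 groups. No measured difference entered the choice. Of the 45 genes, 43 passed the filter on dim probes, a detection p-value under 0.01 on at least 2 of 8 arrays. The probes of Psma1 and Psma6, both alpha ring subunits, were not well above background on any of the 8 arrays. The inhibitor Psmf1, the lid subunit Psmd3, the chaperone Psmg4 and the tissue-restricted subunits Psma8 and Psmb11 were not analysed here. Psmc3ip and Psme3ip1 carry the prefix but are interaction partners, not subunits.

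The cells were naive CD4+ T cells from mice of the strain C57BL6/NCrl, sorted from lymph nodes and spleen as CD62L-positive and negative for CD44, CD25 and DX5. All of them were activated with antibodies to CD3e, bound to the plate, and to CD28, in solution. The groups were Delta4-Ig at day 3 (2 mice), control Ig at day 3 (2 mice), Delta4-Ig at day 1 (1 mouse) and control Ig at day 1 (1 mouse). Delta4-Ig is the Notch ligand Delta-like 4 fused to immunoglobulin and bound to the plate. It presents the ligand alone, without an antigen-presenting cell, and every group received the same antibody stimulus. Mouse 1 gave a sample to all 4 groups and mouse 2 only to the day 3 groups. The 8 arrays stand for 6 samples, since mouse 1 has a second, technical array per stimulus at day 3.

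The proteasome is the protease that degrades proteins tagged with ubiquitin. Its barrel-shaped core holds outer rings of alpha subunits and inner rings of beta subunits, of which Psmb5, Psmb6 and Psmb7 carry the standard active sites. A regulatory particle caps the core: a base with a ring of ATPases unfolds the substrate, and a lid removes the ubiquitin. In lymphoid cells and under interferon-gamma the subunits Psmb8, Psmb9 and Psmb10 replace Psmb5, Psmb6 and Psmb7, which gives the immunoproteasome. The interferon-inducible activator made of Psme1 and Psme2 can cap the core in place of the regulatory particle. Peptides cut this way are carried by the transporter Tap1 and Tap2 to MHC class I molecules. In activated T cells the proteasome also degrades cyclins and inhibitors of NF-kB. The stated design sets Delta4-Ig against control Ig at each day.

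The RefSeq annotation places Psmb9, Tap1, Psmb8 and Tap2 next to each other on chromosome 17, in that order, within the MHC region. Psme1 and Psme2 lie on chromosome 14 with Emc9 between them, and Psmb10 lies on chromosome 8. RefSeq promoters of GRCm38.p6, covering 250 bases before to 50 after the annotated start, were held for 39 of the 45 genes. Those shown are of Psmb9 and Psmb8, the members whose day 3 samples all lay above day 1, of the activator gene Psme1, and of the standard catalytic gene Psmb5 for contrast. Capitals mark matches, on either strand, to GAAANNGAA (a core of interferon regulatory factor elements), TTCNNNGAA (gamma-activated site) or TGANNNNGC (a core of antioxidant response elements).
Psmb9 (chr17:34187281-34187580, minus strand): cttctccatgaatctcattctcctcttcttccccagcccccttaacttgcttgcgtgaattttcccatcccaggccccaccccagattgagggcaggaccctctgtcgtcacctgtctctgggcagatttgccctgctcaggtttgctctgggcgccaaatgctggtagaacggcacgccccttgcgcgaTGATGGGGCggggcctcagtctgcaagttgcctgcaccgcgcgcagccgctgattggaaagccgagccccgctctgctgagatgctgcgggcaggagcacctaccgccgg
Psmb8 (chr17:34197945-34198244, plus strand): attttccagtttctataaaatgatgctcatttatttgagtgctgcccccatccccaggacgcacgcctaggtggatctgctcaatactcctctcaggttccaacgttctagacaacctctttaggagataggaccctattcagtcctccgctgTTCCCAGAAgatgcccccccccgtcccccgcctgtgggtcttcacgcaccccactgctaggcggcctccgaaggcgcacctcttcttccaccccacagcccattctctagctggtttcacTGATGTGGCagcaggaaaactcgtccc
Psme1 (chr14:55578244-55578543, plus strand): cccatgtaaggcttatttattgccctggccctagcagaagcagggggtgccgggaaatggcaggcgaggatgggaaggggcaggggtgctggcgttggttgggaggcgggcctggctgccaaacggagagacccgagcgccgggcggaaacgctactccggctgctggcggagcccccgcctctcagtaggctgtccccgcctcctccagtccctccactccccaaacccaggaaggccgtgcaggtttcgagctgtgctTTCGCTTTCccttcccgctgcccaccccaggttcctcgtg
Psmb5 (chr14:54617946-54618245, minus strand): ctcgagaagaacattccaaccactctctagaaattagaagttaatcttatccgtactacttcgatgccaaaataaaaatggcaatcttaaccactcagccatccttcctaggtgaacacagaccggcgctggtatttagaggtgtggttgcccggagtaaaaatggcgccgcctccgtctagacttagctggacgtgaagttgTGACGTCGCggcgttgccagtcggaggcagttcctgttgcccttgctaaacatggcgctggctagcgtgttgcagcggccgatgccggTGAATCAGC

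In Psmb9 the capitals are TGATGGGGC, 60 bases before the start. In Psmb8 they are TTCCCAGAA, 97 bases before the start, and TGATGTGGC after it. In Psme1 they are TTCGCTTTC, a minus-strand match after the start, and in Psmb5 TGACGTCGC, 47 bases before the start, and TGAATCAGC after it. GAAANNGAA was found for 1 of 5 immunoproteasome genes (Psme1) and for 4 of 25 genes of the standard core, against 8.56% of 32851 promoters of this length. A gene was counted when any of its promoters matched, while the percentages count single promoters, so the measures are not alike. TTCNNNGAA was found in 1 of 5 (Psmb8) and in 1 of 25 (Psmd2), against 8.3%. TGANNNNGC was found in 3 of 5 (Psmb8, Psmb9 and Psme2) and in 14 of 25, against 41.3%. These letters may occur without being bound, and their absence from 300 bases says nothing of the factors.

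Values are log2 intensities after background correction and quantile normalization, and differences are log2 differences with the SE of a limma fit of all 4 groups without a term for the mouse. A difference was called at a Benjamini-Hochberg adjusted p under 0.05 over all 10744 probes kept. A second fit added the mouse as a block, and its results are given as those with the mouse block. Between 8940 and 10543 probes (34.8% to 41.0%) were detected per array. All 6 CD4 T cell markers were detected on all 8 arrays. Of the other cell types, Cd8b1 was detected on all 8 arrays and Cd8a on none, 1 to 4 of 7 B cell markers with a probe were detected per array with Cd79a, Ms4a1 and Cd22 on none, 0 to 2 of 4 NK cell markers, and none of 4 myeloid and 2 red cell markers. The mean level of the B cell markers was 6.61 and 6.92 in the Delta4-Ig samples and 6.63 and 6.84 in the control Ig samples at day 3, and 5.86 with Delta4-Ig and 5.96 with control Ig at day 1. Within that list the MHC class II chain H2-Ab1 was 2.72 higher with Delta4-Ig at day 3 (limma adjusted p = 0.0195 with the mouse block, 0.9999 without) and the invariant chain Cd74 stood 1.68 lower (0.0854 with the block). The class II chain H2-Aa differed by -0.70 at day 3, the other way from H2-Ab1, and did not pass (limma adjusted p = 0.5335 with the block). Over time H2-Ab1 and Cd74 both rose with the block, by 3.38 and 2.17 (limma adjusted p = 0.0032 and 0.0101), and neither passed without it. H2-Ab1 was not detected on the day 1 arrays. Cd74 with Delta4-Ig stood at 7.50 in mouse 2 at day 3, below its 7.91 in mouse 1 at day 1. The NK cell marker Klrd1 stood at 5.31 in mouse 1 and 9.13 in mouse 2 with Delta4-Ig and at 5.11 in mouse 1 and 7.16 in mouse 2 with control Ig at day 3. The part of these markers in the results was not tested. In such bulk RNA, fewer cells of a type and less RNA per cell cannot be told apart.

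At day 3 none of the 43 measured genes differed between Delta4-Ig and control Ig past the threshold. Most stood slightly lower with Delta4-Ig: 24 of 43 were lower in each mouse, against a background of 31.6% of probes. The genes higher in each mouse were the chaperones Psmd10 and Psmg1 and the activator Psme4, 3 of 43, against 1981 of 7500 measured genes. The median difference was -0.24 over the 43 genes and -0.05 over the 7500. The share of probes called was 0% without the block and 0.707% with it, and the count of members was 0 both ways (limma). At an unadjusted p under 0.05 the count was 0 without the block, beside 2.81% of probes, and 1 of 43 (Psmb10) with it, beside 9.61% of probes. The smallest adjusted p among members was 0.9999 without the block and 0.426 with it. The SE of a member's difference ran from 0.34 to 0.81 with a median of 0.44, and the number of mice limits the precision.

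The lower values came mainly from mouse 2, whose arrays had 10543 (Delta4-Ig) and 9950 (control Ig) probes detected, against 8940 to 9443 on the day 3 arrays of mouse 1, and whose Klrd1 level was the higher. The part of these in the results was not tested. In mouse 2, 38 of the 43 genes were lower with Delta4-Ig and the median difference was -0.48. In mouse 1, 26 of 43 were lower and the median was -0.05. Over the 7500 measured genes the medians were -0.05 in mouse 2 and -0.02 in mouse 1, and 3981 and 3963 genes were lower with Delta4-Ig. The standard core, 28 measured genes of the alpha ring, standard beta ring, ATPases, base and lid, had a median of -0.21, with -0.04 in mouse 1 and -0.49 in mouse 2. Without the Delta4-Ig sample of mouse 2 that median was 0.11, and without the Delta4-Ig sample of mouse 1 it was -0.67. Without the control Ig sample of mouse 2 it was -0.40, and without that of mouse 1 -0.13. In each case the sample left was set against the mean of both mice with the other stimulus. These values therefore also hold the difference between the animals, while the medians within each mouse were both below 0. The 5 immunoproteasome genes had a median of -0.33, at -0.56 in mouse 1 and -0.12 in mouse 2. Of them Psmb8, Psmb9 and Psme2 had the lower difference in mouse 1, and Psmb10 and Psme1 in mouse 2. Leaving out any 1 day 3 sample kept the immunoproteasome median between -0.39 and -0.28. The difference between the gene groups was not tested.

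**Figure D1:**
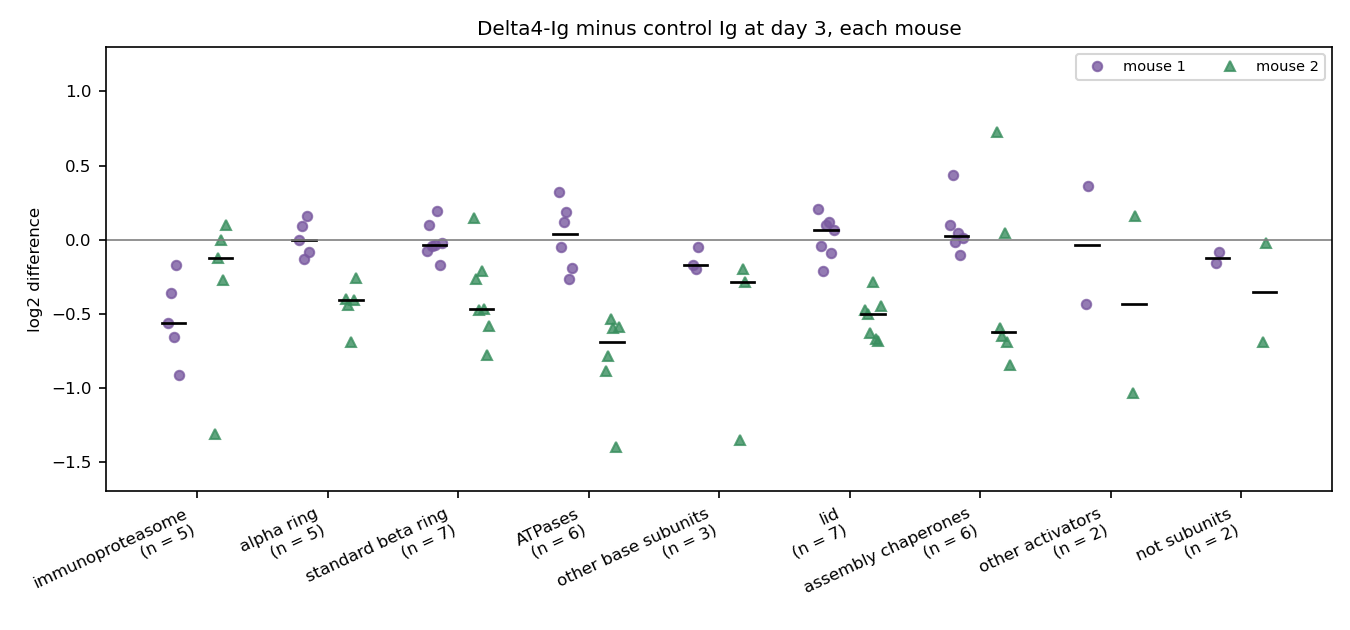
Delta4-Ig minus control Ig at day 3 on the log2 scale (vertical axis) for 43 measured genes by role (horizontal axis), circles for mouse 1 and triangles for mouse 2, with a bar at each median. Medians of the ATPases were 0.04 in mouse 1 and -0.69 in mouse 2, while those of the immunoproteasome were -0.56 in mouse 1 and -0.12 in mouse 2.

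Among the immunoproteasome genes, the largest day 3 difference was that of Psmb10, which carries the trypsin-like site in the place of Psmb7. Its level was 11.43 in mouse 1 and 10.09 in mouse 2 with Delta4-Ig, against 11.99 in mouse 1 and 11.40 in mouse 2 with control Ig. Within each mouse the Delta4-Ig sample was lower, by 0.56 and 1.31, but the groups overlapped, since mouse 1 with Delta4-Ig lay just above mouse 2 with control Ig. The difference was -0.94 ± 0.57 (SE, 2 mice each), 1.91-fold lower, with a 95% interval of -2.39 to 0.52 and a limma adjusted p = 0.9999, or 0.426 with the mouse block. Against the mean of both control Ig samples it was -0.27 without the Delta4-Ig sample of mouse 2 and -1.61 without that of mouse 1. A second probe of Psmb10 gave -0.86.

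Psmb8, the chymotrypsin-like immunosubunit that replaces Psmb5, stood at 8.50 and 8.83 with Delta4-Ig and at 8.86 and 8.96 with control Ig in mouse 1 and mouse 2. Both Delta4-Ig samples lay below both control Ig samples, and the difference was -0.24 ± 0.36. Psmb9, which replaces Psmb6 and is encoded beside Tap1, stood at 12.59 and 13.25 with Delta4-Ig and at 13.25 and 13.26 with control Ig. Only the Delta4-Ig sample of mouse 1 was set apart from the other three day 3 samples, and the difference was -0.33 ± 0.40.

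Neither gene of the interferon-inducible activator passed the threshold. Psme1, the alpha subunit of the interferon-inducible activator, stood at 13.73 and 13.62 with Delta4-Ig and at 13.90 in both mice with control Ig. The groups did not overlap, at a difference of -0.22 ± 0.34, and a second probe gave -0.21. Psme2, its partner, was above background on 2 of 3 arrays per stimulus and stood at 6.07 and 6.04 with Delta4-Ig and at 6.98 and 5.94 with control Ig. That level is partly at background, its difference was -0.41 ± 0.47 with opposite signs in the mice (-0.92 in mouse 1, 0.10 in mouse 2), and the near-identical Psme2b may share its probe.

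Among the standard catalytic subunits mouse 2 lay below mouse 1 with either stimulus. Psmb5, the chymotrypsin-like subunit, was at 10.86 and 9.33 with Delta4-Ig and at 10.67 and 9.80 with control Ig. It was higher with Delta4-Ig in mouse 1 by 0.19 and lower in mouse 2 by 0.47. Psmb6, the caspase-like subunit, stood at 12.33 and 11.14 with Delta4-Ig and at 12.50 and 11.92 with control Ig, a difference of -0.48 ± 0.54. Psmb7, the trypsin-like subunit, stood at 12.08 and 11.34 with Delta4-Ig and at 12.10 and 11.92 with control Ig, a difference of -0.30 ± 0.41. Both were lower with Delta4-Ig in each mouse, and in all of Psmb5, Psmb6 and Psmb7 the groups overlapped. Their 95% intervals without the block were -1.79 to 1.51 for Psmb5, -1.84 to 0.89 for Psmb6 and -1.36 to 0.75 for Psmb7. Each of these holds a 2-fold lower level. With the mouse block the intervals were -0.92 to 0.64, -1.25 to 0.30 and -1.07 to 0.46. There a 2-fold lower level lies inside those of Psmb6 and Psmb7 but outside that of Psmb5. None is adjusted for the number of probes.

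**Figure D2:**
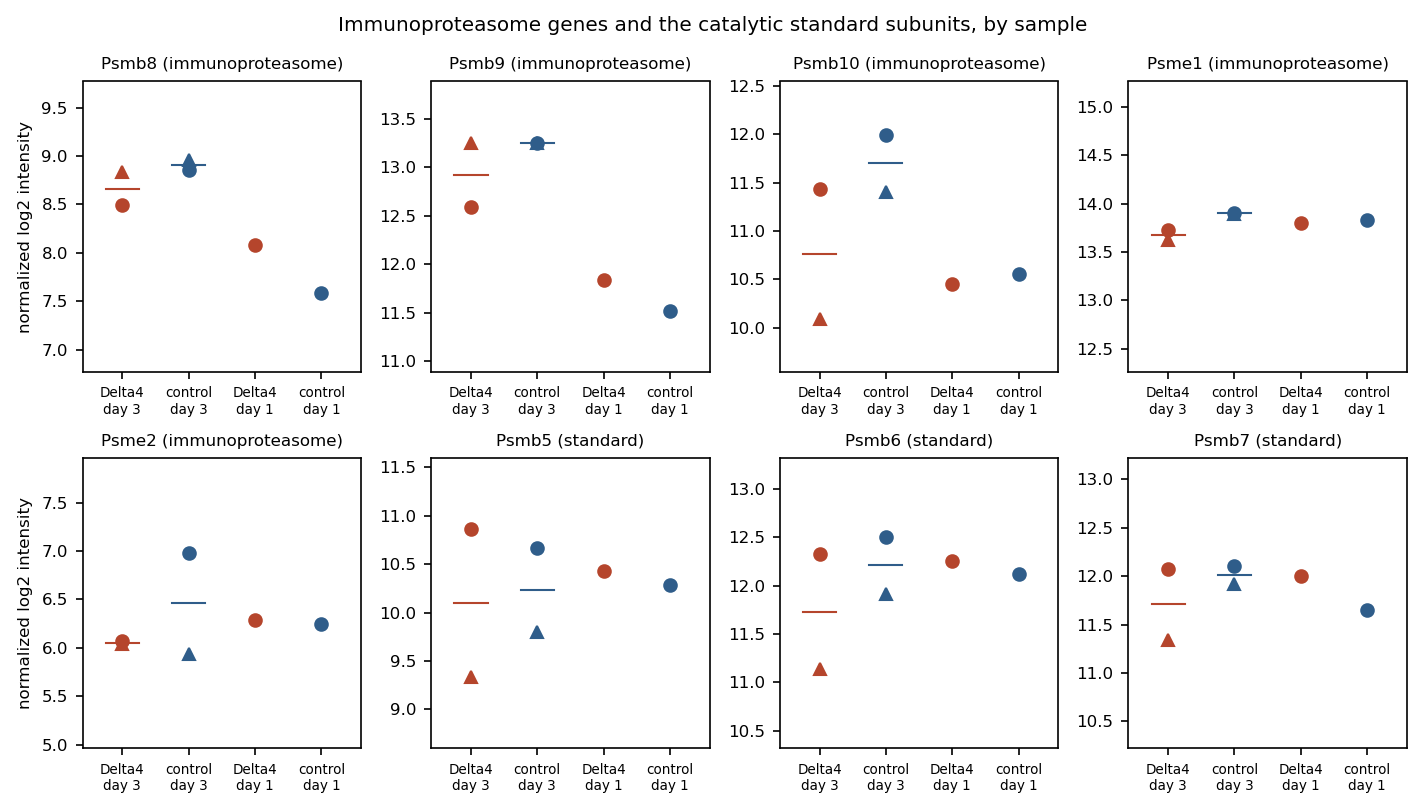
Normalized log2 intensity (vertical axis) of the 5 immunoproteasome genes and the 3 standard catalytic subunits in each sample (horizontal axis: stimulus and day), circles for mouse 1, triangles for mouse 2 and a bar at the mean of a day 3 group. Each panel spans 3 log2 units around its own centre. All 4 day 3 samples of Psmb8 and Psmb9 lie above both day 1 samples, while Psmb5, Psmb6 and Psmb7 at day 3 lie on both sides of their day 1 values.

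In the rest of the beta ring, which is structural, the day 3 differences ran from -0.26 for Psmb3 to 0.03 for Psmb1. Psmb1 stood at 12.49 and 12.61 with Delta4-Ig and at 12.57 and 12.46 with control Ig and the samples of both stimuli interleaved. Its sign was not settled, at -0.0009 with 75th percentile scaling and -0.0116 with the second array of mouse 1 alone. Psmb3 stood at 12.99 and 12.07 with Delta4-Ig and at 13.03 and 12.54 with control Ig. The alpha ring, which gates the entry to the core, ran from -0.41 for Psma4 to -0.13 for Psma5. Psma4 stood at 13.34 and 12.90 with Delta4-Ig and at 13.47 and 13.59 with control Ig, so that both Delta4-Ig samples lay lower. Psma5 was higher with Delta4-Ig in mouse 1 (14.20 against 14.04) and lower in mouse 2 (13.27 against 13.68). All 5 measured alpha genes were lower with Delta4-Ig in mouse 2, and 2 of 5 in mouse 1.

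The ATPases of the base were split between the animals. All 6 were lower with Delta4-Ig in mouse 2, with a median of -0.69, and 3 of 6 in mouse 1, with a median of 0.04. Psmc5 stood at 12.41 in mouse 1 and 10.83 in mouse 2 with Delta4-Ig, against 12.68 in mouse 1 and 12.23 in mouse 2 with control Ig. Only the Delta4-Ig sample of mouse 2 was far from the others, and the difference was -0.83 ± 0.62 (limma adjusted p = 0.548 with the mouse block). A second Psmc5 probe gave -0.52. Psmc4 lay at the other end of the group, at 13.01 and 11.79 with Delta4-Ig and at 12.82 and 12.39 with control Ig, a difference of -0.20 ± 0.53.

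Of the base subunits without ATPase activity, Psmd1, a scaffold that binds ubiquitin receptors, showed the same pattern. It stood at 9.26 and 7.86 with Delta4-Ig and at 9.43 and 9.21 with control Ig, a difference of -0.76 ± 0.56 made of -0.17 in mouse 1 and -1.35 in mouse 2. Psmd4, a ubiquitin receptor, stood at 12.88 and 12.64 with Delta4-Ig and at 12.93 and 12.92 with control Ig, with no overlap at a difference of -0.17. In the lid all 7 measured genes were lower with Delta4-Ig in mouse 2 and 3 of 7 in mouse 1. The lid differences ran from -0.42 for Psmd13 to -0.09 for Psmd14, the deubiquitinase that removes ubiquitin chains. Psmd14 stood at 12.15 and 11.70 with Delta4-Ig and at 12.05 and 11.99 with control Ig. Psmd13 stood at 13.05 and 12.19 with Delta4-Ig and at 13.26 and 12.82 with control Ig.

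The assembly chaperones, which leave the finished particle, moved in both directions. Psmd10 (gankyrin), a chaperone of the base, stood at 11.25 and 11.51 with Delta4-Ig and at 11.16 and 10.78 with control Ig. It was the one member whose Delta4-Ig samples both lay above both control Ig samples, at 0.41 ± 0.37, and its other detected probes gave 0.24 and 0.20. Psmg3, which helps to form the alpha ring, stood at 10.24 and 8.21 with Delta4-Ig and at 10.23 and 9.06 with control Ig, a difference of -0.42 ± 0.81 that was 0.01 in mouse 1 and -0.84 in mouse 2. Psmg2 lay lower with Delta4-Ig without overlap, at 10.79 and 10.10, against 10.89 and 10.80 with control Ig. In all, both Delta4-Ig samples lay below both control Ig samples for 7 of 43 genes, beside 12.4% of probes, and above them for 1 of 43, beside 12.5%.

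Of the activators outside the interferon-inducible pair, Psme3, which forms a nuclear cap that works without ubiquitin, stood at 11.68 and 10.56 with Delta4-Ig and at 12.11 and 11.59 with control Ig. It was lower with Delta4-Ig in each mouse, by 0.43 and 1.03, at a difference of -0.73 ± 0.51 (limma adjusted p = 0.546 with the mouse block). Psme4, a single-chain activator, lay the other way in each mouse, at 11.51 and 11.72 with Delta4-Ig and at 11.16 and 11.56 with control Ig, a difference of 0.26 ± 0.37. Of the partners, Psmc3ip differed by -0.42 and Psme3ip1 by -0.05.

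Over time Psmb9, Psmb8 and Psmb10 had the 3 largest positive changes of the 43 members in the fit without the block, but no member passed the threshold in either fit. Psmb9 was 1.41 ± 0.34 higher at day 3 than at day 1, or 2.65-fold, and Psmb8 0.95 ± 0.31 higher, or 1.93-fold. Psmb10 was 0.73 ± 0.49 higher, or 1.21 ± 0.34 with the mouse block. The standard core had a median change of -0.33, or -0.12 with the block, and all measured genes -0.08, or -0.03 with it. Of all probes, 0% were called for time without the block and 8.06% with it, and the count of members was 0 of 43 both ways (limma). An unadjusted p under 0.05 was reached by 3 of 43 members (Psmb8, Psmb9 and Psmd6), beside 13.9% of probes, and by 5 of 43 with the block, which adds Psmb10 and Psmd9, beside 24.1% of probes. Both day 1 samples are from mouse 1, so for mouse 2 a change over time cannot be told apart from a difference between the animals, and the block rests the estimate on mouse 1.

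Psmb9 stood at 12.59 and 13.25 with Delta4-Ig and 13.25 and 13.26 with control Ig at day 3, against 11.84 with Delta4-Ig and 11.52 with control Ig at day 1. All 4 day 3 samples lay above both day 1 samples. Within mouse 1 it changed by 0.75 with Delta4-Ig and by 1.73 with control Ig. The 95% interval of the change was 0.53 to 2.29 without adjustment for the number of probes, and the limma adjusted p = 0.212, or 0.0685 with the mouse block. With the block, Psmb9 passed when detection on all 8 arrays was required (1.24) and with 75th percentile scaling (1.35).

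Psmb8 stood at 8.50 and 8.83 with Delta4-Ig and 8.86 and 8.96 with control Ig at day 3, against 8.09 with Delta4-Ig and 7.59 with control Ig at day 1. Again no day 3 sample reached down to day 1. Within mouse 1 it was 0.41 higher with Delta4-Ig and 1.27 higher with control Ig, and the limma adjusted p = 0.300, or 0.154 with the mouse block. Psmb8 and Psmb9 were the 2 of 43 members whose day 3 samples all lay above day 1, beside 17.1% of probes.

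Psmb10 stood at 11.43 and 10.09 with Delta4-Ig and 11.99 and 11.40 with control Ig at day 3, against 10.45 with Delta4-Ig and 10.55 with control Ig at day 1. The Delta4-Ig sample of mouse 2 was below both day 1 samples and the other day 3 samples were above them. Within mouse 1 it changed by 0.99 with Delta4-Ig and by 1.44 with control Ig, and a second probe gave 0.78 where the first gave 0.73 over both mice. The limma adjusted p = 0.537, or 0.0766 with the mouse block. Like Psmb9 it passed with the block under detection on all 8 arrays (1.21) and under 75th percentile scaling (1.29). In mouse 1 the change of Psmb8, Psmb9 and Psmb10 was larger with control Ig in each gene.

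Of the activator pair, Psme1 did not follow these beta subunits, and for Psme2 the data cannot decide. Psme1 stood between 13.62 and 13.90 at day 3, against 13.80 with Delta4-Ig and 13.84 with control Ig at day 1, a change of -0.03 ± 0.30 with a 95% interval of -0.78 to 0.73. Psme2, partly at background, stood between 5.94 and 6.98 at day 3, against 6.29 with Delta4-Ig and 6.25 with control Ig at day 1. Its change was -0.01 ± 0.41 with a 95% interval of -1.05 to 1.03, or 0.26 with the mouse block. Within mouse 1 it changed by -0.22 with Delta4-Ig and by 0.74 with control Ig. A 2-fold change lies outside the interval of Psme1 and inside that of Psme2, and neither interval is adjusted for the number of probes.

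Set beside the subunits they replace, the immunosubunits changed more in mouse 1, within which day 3 and day 1 come from the same animal. With control Ig, Psmb9 changed by 1.73 and Psmb6 by 0.37, Psmb10 by 1.44 and Psmb7 by 0.45, and Psmb8 by 1.27 and Psmb5 by 0.39. With Delta4-Ig, Psmb9 changed by 0.75 and Psmb6 by 0.07, Psmb10 by 0.99 and Psmb7 by 0.07, and Psmb8 by 0.41 and Psmb5 by 0.43. The immunosubunit had the larger change in each pair except Psmb8 and Psmb5 with Delta4-Ig. Between mouse 2 at day 3 and mouse 1 at day 1, Psmb5, Psmb6 and Psmb7 with Delta4-Ig were lower by 1.10, 1.12 and 0.66, while Psmb8 and Psmb9 were higher by 0.75 and 1.41 and Psmb10 lower by 0.35. These are differences between probes on 1 array type and were not tested.

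**Figure D3:**
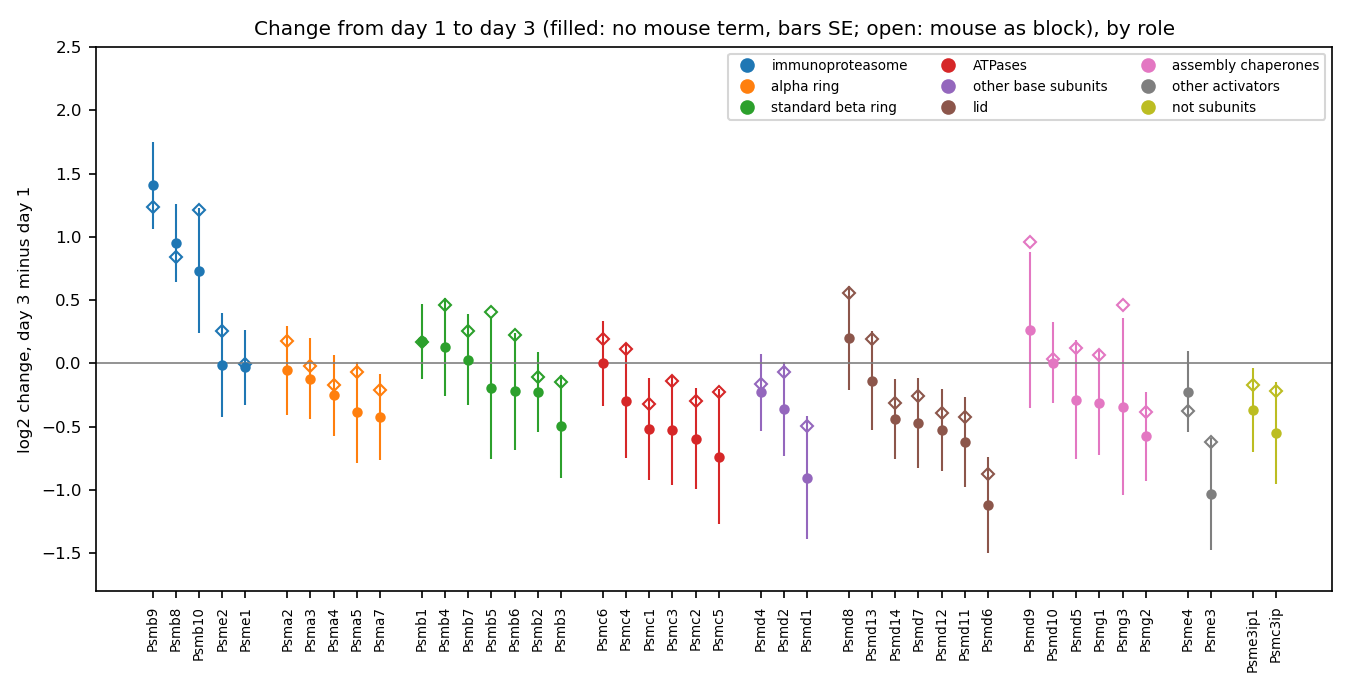
Change on the log2 scale, day 3 minus day 1 (vertical axis), of 43 measured genes grouped by role and named on the horizontal axis, filled points with SE bars for the fit without a mouse term and open diamonds for the blocked fit. Psmb9, Psmb8 and Psmb10 lie highest without the block at 1.41, 0.95 and 0.73, and Psmd6 lies lowest at -1.12.

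Toward lower levels, Psmd6, a lid subunit, was the member with the largest change. It stood at 9.24 and 8.36 with Delta4-Ig and 9.12 and 9.03 with control Ig at day 3, against 9.92 with Delta4-Ig and 10.19 with control Ig at day 1. Every day 3 sample lay below both day 1 samples, the change was -1.12 ± 0.38 (limma adjusted p = 0.313, or 0.175 with the mouse block), and a second probe gave -0.75. Psme3 stood at 11.68 and 10.56 with Delta4-Ig and 12.11 and 11.59 with control Ig at day 3, against 12.39 with Delta4-Ig and 12.64 with control Ig at day 1, a change of -1.03 ± 0.45. Psmd1 changed by -0.90 ± 0.48, and Psmc5 by -0.74 ± 0.53. All 4 day 3 samples lay below both day 1 samples for 15 of 43 members, beside 23.9% of probes. Of these 15, 12 belong to the standard core, which holds 28 of the 43 members. The lid, with 7 measured genes, gave 5: Psmd6, Psmd7, Psmd11, Psmd12 and Psmd14.

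Several other changes over time had no settled sign. Psmb5 was at -0.19 ± 0.56 without the block and 0.41 ± 0.33 with it, and Psmb6 at -0.22 and 0.22. Psma2, Psmc4, Psmd13 and Psmg3 turned in the same way, to 0.18, 0.12, 0.19 and 0.46 with the block. Psmg3 stood at 10.24 and 8.21 with Delta4-Ig and 10.23 and 9.06 with control Ig at day 3, against 9.84 with Delta4-Ig and 9.71 with control Ig at day 1, so mouse 1 lay above day 1 and mouse 2 below it. Psmd9, a chaperone of the base, was 0.27 ± 0.62 without the block and 0.96 ± 0.33 with it (limma adjusted p = 0.131). It stood at 7.97 and 6.27 with Delta4-Ig and 7.98 and 6.92 with control Ig at day 3, against 7.37 with Delta4-Ig and 6.67 with control Ig at day 1. Psmd8 had the largest positive change of the lid, 0.20 ± 0.41 without the block and 0.56 ± 0.32 with it.

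Most members, of the standard core and beyond it, stood lower in mouse 2 at day 3. Mouse 2 was lower than mouse 1 in 38 of 43 genes with Delta4-Ig, with a median difference of -0.74, and in 37 of 43 genes with control Ig, with a median of -0.30. Over all measured genes 3947 of 7500 were lower in mouse 2 with Delta4-Ig and 3924 with control Ig, with medians of -0.05 and -0.03. In the standard core mouse 2 was lower in 27 of 28 genes with Delta4-Ig and in 25 of 28 with control Ig. The core medians were -0.74 with Delta4-Ig and -0.22 with control Ig, and those of Psmb8, Psmb9 and Psmb10 were 0.34 and 0.01. Across the 43 members, values of mouse 2 minus mouse 1 had an SD of 0.57 (Delta4-Ig) and 0.34 (control Ig), while those of the technical arrays of mouse 1 had an SD of 0.20 (Delta4-Ig) and 0.22 (control Ig). Technical arrays differed by at most 0.54 with Delta4-Ig and 0.78 with control Ig in any member. The largest differences between mice with Delta4-Ig were those of Psmg3 (8.21 in mouse 2 and 10.24 in mouse 1), Psmd9 (6.27 and 7.97), Psmc5 (10.83 and 12.41) and Psmb5 (9.33 and 10.86).

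**Figure D4:**
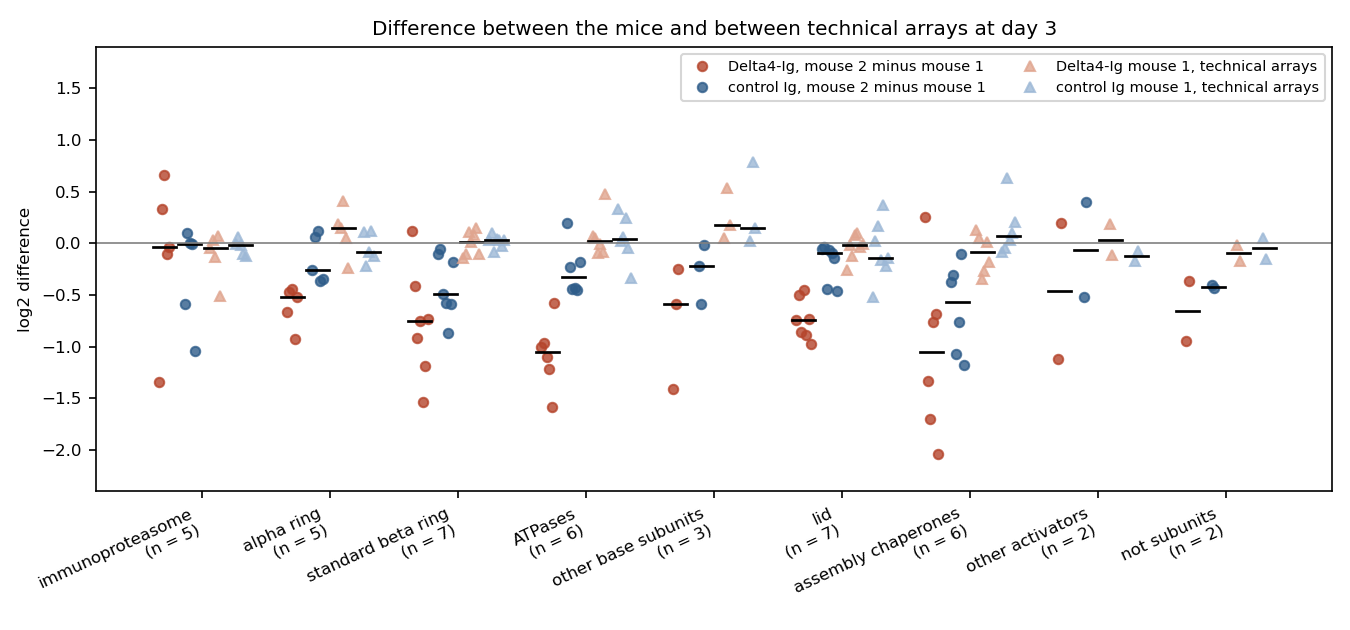
Log2 difference at day 3 (vertical axis) between the mice (circles, mouse 2 minus mouse 1) and between technical arrays of mouse 1 (triangles, second minus first), in red with Delta4-Ig and in blue with control Ig, for 43 genes by role (horizontal axis), with bars at medians. All 6 ATPases and 7 lid genes were lower in mouse 2 with Delta4-Ig, while technical arrays scattered around 0.

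At day 1, with 1 sample per stimulus and no test, no member differed 2-fold, beside 1.62% of 9772 probes detected in 1 or both samples. The differences ran from -0.46 for Psmd2 to 0.71 for Psmd9 with a median of 0.08, and 26 of 43 genes were higher with Delta4-Ig, against 3651 of 7500 measured genes. Psmb8 was 0.50 higher and Psmb9 0.32 higher with Delta4-Ig, and Psmb10 0.10 lower. All 7 genes of the standard beta ring were higher with Delta4-Ig at day 1, by 0.06 to 0.35. Technical arrays of these 7 genes differed by at most 0.15 with Delta4-Ig and 0.10 with control Ig at day 3, but day 1 has no replicate check. Such arrays repeat a sample and do not hold the spread between samples. The SE of a day 3 difference of these genes ran from 0.34 to 0.65.

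The effect of Delta4-Ig at day 3 did not differ from its effect at day 1 past the threshold in any member. For that difference 0% of probes were called without the block and 0% with it, and the member count was 0 both ways (limma, smallest adjusted p of a member 0.9998, or 0.9989 with the block). At an unadjusted p under 0.05 the count was 0 of 43 members, beside 0.596% of probes. The difference was -0.74 ± 0.62 for Psmb8, -0.65 ± 0.69 for Psmb9 and -0.83 ± 0.99 for Psmb10. Its median was -0.65 over the 5 immunoproteasome genes, -0.32 over the standard core and -0.05 over all measured genes. Without the Delta4-Ig sample of mouse 2 at day 3 the core median was 0.11, and without that of mouse 1 it was -0.72. Both values use the mean of both control Ig samples at day 3, so the difference between the animals enters them.

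Genes that act with the proteasome were listed apart from the members. Of 10 partners and assembly factors, 6 were measured, and 0 passed in any comparison. Pomp, the maturation factor of the core, differed by -0.25 at day 3 and changed by -0.20 over time, and Sem1, a small lid subunit, by 0.07 and 0.14. Uchl5 and Usp14, deubiquitinases bound to the regulatory particle, differed by -0.75 and -0.48 at day 3, and Usp14 was 1.22 lower with Delta4-Ig in mouse 2 and 0.26 higher in mouse 1. Of 16 genes for ubiquitin, its activating enzymes and delivery factors, 7 were measured, 0 passed, and 6 of 7 lay lower in all day 3 samples than in both day 1 samples, beside the same 23.9% of probes. Vcp, the ATPase that extracts substrates, changed by -0.77 ± 0.33.

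Of 8 genes that control proteasome expression, 5 were measured. Nfe2l2, a transcription factor of the oxidative stress response detected on 6 of 8 arrays, fell over time with the mouse block, by 1.81 on the log2 scale (limma adjusted p = 0.0165). Without the block its change was -1.08 ± 0.63 with a limma adjusted p = 0.491. It stood at 6.05 and 7.49 with Delta4-Ig and 6.23 and 7.69 with control Ig at day 3, against 8.42 with Delta4-Ig and 7.47 with control Ig at day 1. Each day 3 sample lay below the day 1 sample of its stimulus except control Ig in mouse 2, which was 0.22 higher. Nfe2l1, which drives proteasome genes when the proteasome is inhibited, differed by -0.03 at day 3 and changed by 0.13 over time.

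In MHC class I loading 11 of 12 genes were measured and 0 passed. Tap1 and Tap2, the neighbours of Psmb9 and Psmb8, changed over time by 0.94 ± 0.37 and 0.75 ± 0.33, with all 4 day 3 samples above both day 1 samples. The same held for Tapbpl and H2-D1, which changed by 0.71 and 0.65. In all, 4 of 11 genes lay above without overlap, beside 17.1% of probes, and 1 of 11 (Calr) below, beside 23.9%. Tap1 stood at 9.92 and 10.75 with Delta4-Ig and 10.62 and 10.59 with control Ig at day 3, against 9.70 with Delta4-Ig and 9.36 with control Ig at day 1. Nlrc5, a transactivator of MHC class I genes, stood at 9.30 and 10.95 with Delta4-Ig and 10.85 and 11.56 with control Ig at day 3, a difference of -1.08. At day 3, 10 of the 11 were lower with Delta4-Ig in mouse 1 and 7 of 11 in mouse 2, beside 3963 and 3981 of 7500 measured genes.

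Of 12 genes of interferon signalling 11 were measured. With the mouse as a block Ifng rose over time by 4.69 (limma adjusted p = 0.0104), and Ifngr2 and Jak1 fell by 1.83 and 1.81 on the log2 scale (limma adjusted p = 0.0207 and 0.0177). Without the block 0 of 11 passed. Of all probes, 8.06% were called for time with the block and 0% without it. Within mouse 1 Ifngr2 changed by -2.12 with Delta4-Ig and -1.54 with control Ig, and Jak1 by -1.79 and -1.83. Between mouse 2 at day 3 and mouse 1 at day 1, Ifngr2 differed by only 0.07 and -0.05, and Jak1 by -0.33 and -0.71. Ifng stood at 12.80 and 12.11 with Delta4-Ig and at 10.19 and 12.72 with control Ig at day 3, against 7.49 with Delta4-Ig and 6.13 with control Ig at day 1. On the control Ig array at day 1 it was not detected, so the size of its rise starts partly from background. The mice had opposite signs of the stimulus difference in Ifng at day 3, 2.61 in mouse 1 and -0.62 in mouse 2. Irf1 and Irf8, transcription factors that bind interferon elements, lay lower with Delta4-Ig without overlap, by 0.96 and 1.28. So did Jak2, by 0.37, and none of them passed at day 3. In all, 3 of 11 genes were lower without overlap, beside 12.4% of probes, and 1 of 11 (Ifngr1) was higher, beside 12.5%. The receptor chain Ifngr1 lay 1.95 higher without overlap, by 0.98 in mouse 1 and 2.93 in mouse 2, and did not pass either (limma adjusted p = 0.9999, or 0.174 with the mouse block).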

How the data were processed

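Per the labels, total RNA was amplified, labelled with biotin and hybridised to Illumina mouse arrays. The authors deposited for each probe a linear intensity without background subtraction or normalization, and a detection p-value, on every array. Per the submitters' processing notes GenomeStudio and limma were used; versions and steps are not given in the sources used here. The authors' deposited log2 values, whose scale is not stated, differed from those computed here by at most 0.0417, and were used to choose each gene's probe and as an alternative.

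The neqc function (limma 3.58.1, R 4.3.3, offset 16) corrected the background and quantile-normalized the intensities, and technical arrays were averaged. Of 25697 probes 10744 were kept. The annotation gave 1 symbol for 23978 probes, several for 0, and left 1719 unnamed here. Group means of 6 samples were fitted with lmFit and eBayes, with 2 residual degrees of freedom, and p-values were adjusted by Benjamini-Hochberg over all kept probes. The fits were run on simulated data, where only the mean estimate of added differences was checked and not the error rate. The spread of day 1 was taken to equal that of day 3, and at day 1 a 2-fold difference was counted without a test. The alternative with the mouse as a block pairs samples of the same animal, per the labels. At day 3 the difference between mice correlated at r = 0.607 between the stimuli across probes, which are not independent replicates. Other alternatives changed the background correction, offset, filter, scaling, probe choice, technical arrays and samples.

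Values in full are given for the immunoproteasome genes, Psmb5 to Psmb7, Psme3, Psme4, any member past the threshold and the extremes of each role group. A few further genes were named after their values were seen. The lists were chosen with earlier results of these data known, and so were the members, although their prefix rule uses no measured difference. Beyond their strain, the tissues taken and their number, nothing in the labels describes the mice.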

Additional observations from a re-analysis of the deposited data

How the results depend on the processing

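No member passed the threshold at day 3, or in the difference between the day 3 and day 1 effects, under any of 20 alternatives. For time, 2 members passed under the replicate block with detection on all 8 arrays (Psmb9 1.24, Psmb10 1.21; 2 of 42, beside 7.89% of probes) and 2 under the replicate block with 75th percentile scaling (Psmb9 1.35, Psmb10 1.29; 2 of 43, beside 13.6%), and 0 under the others. The replicate block alone called 0 members and changed no call. The mice are paired by animal, and at day 3 the block leaves each difference as it is. Over time the replicate block turned the sign of 7 named genes, to 0.18 for Psma2, 0.41 for Psmb5, 0.22 for Psmb6, 0.12 for Psmc4, 0.19 for Psmd13, 0.46 for Psmg3 and 0.26 for Psme2. The block gave the same values with no filter and, for the genes other than Psme2, with detection on all 8 arrays. With an offset of 50 as well they were 0.18, 0.40, 0.22, 0.12, 0.19, 0.45 and 0.20, with no background correction 0.18, 0.37, 0.22, 0.12, 0.19, 0.40 and 0.12, and on the authors' values 0.16, 0.41, 0.22, 0.12, 0.20, 0.46 and 0.26. With 75th percentile scaling as well they were 0.27, 0.46, 0.32, 0.22, 0.28, 0.51 and 0.19, and Psme1 was 0.0669. Without the block, the change of Psme2 was 0.0667 with the first array of mouse 1, 0.0102 with no background correction and 0.0053 with an offset of 50. That of Psmc6 was -0.0157 with the first array. That of Psmb7 was -0.0271 with 75th percentile scaling and -0.0527 with the median over probes, and that of Psmd10 -0.0616 and -0.0647. The day 3 difference of Psmb1 was -9e-04 with 75th percentile scaling, with or without the block, and -0.0116 with the second array. The day 1 median of the immunoproteasome, 0.04, was -0.0411 with 75th percentile scaling, 0.14 with detection on all 8 arrays and 0.11 with the median over probes, and that of the core, 0.0746, was 0.0665 with 75th percentile scaling, 0.0856 with the median over probes and 0.054 with no filter.

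Leaving out each day 3 sample in turn moved the core median from -0.67 to 0.11 at day 3, and from -0.72 to 0.11 for the difference between the effects. These fits do not pair the mice, so a turn of sign can come from the difference between the animals. Within each mouse Psma7, Psmb3, Psmb6, Psmb7, Psmd9 and Psmd13 were lower with Delta4-Ig at day 3, although their ranges below cross 0. Day 3 differences ran from -0.53 to 0.13 for Psma2, -0.59 to 0.34 for Psma5, -0.43 to 0.0877 for Psma7, -0.0259 to 0.091 for Psmb1, -0.72 to 0.20 for Psmb3, -0.91 to 0.63 for Psmb5, -1.07 to 0.12 for Psmb6, -0.67 to 0.0631 for Psmb7, -0.81 to 0.40 for Psmc4, -0.85 to 0.006 for Psmd13, -0.32 to 0.13 for Psmd14, -0.72 to 0.17 for Psmd6, -0.68 to 0.30 for Psmd8, -1.18 to 0.52 for Psmd9, -0.93 to 0.11 for Psme2 and -1.43 to 0.60 for Psmg3. Changes over time ran from -0.22 to 0.11 for Psma2, -0.57 to 0.19 for Psmb5, -0.52 to 0.0766 for Psmb6, -0.15 to 0.21 for Psmb7, -0.60 to 0.0093 for Psmc4, -0.14 to 0.15 for Psmc6, -0.0885 to 0.10 for Psmd10, -0.35 to 0.079 for Psmd13, -0.0433 to 0.44 for Psmd8, -0.16 to 0.69 for Psmd9, -0.27 to 0.25 for Psme2 and -0.85 to 0.17 for Psmg3. With no turn of sign, day 3 differences ran from -1.61 to -0.27 for Psmb10, -1.62 to -0.04 for Psmc5, -1.46 to -0.0589 for Psmd1, -1.29 to -0.17 for Psme3 and -0.66 to -0.0011 for Psmb9, and the change of Psmb10 over time from 0.40 to 1.07. None of these passed the threshold with a sample left out, and the cause was not tested. Signal over background limits Psme2, which detection on all 8 arrays leaves out.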

Other observations

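Of the 45 genes, 18 have several probes, and 14 of them several that passed the filter. In all 14 the probes that passed had the same sign of the day 3 difference. For the change over time they had the same sign in 12 of 14, the exceptions being Psmb7 and Psmd10, whose values lay near 0. The second probe of Psmd6 gave -0.77 at day 3 where the first gave -0.28, and that of Psmd11 gave -0.47 where the first gave -0.13.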
